A study of Mus musculus with 10 samples.

Results

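Trem2, Tyrobp, Lgals3, Gpnmb, Cd68 and Spp1 are genes of the lipid-associated macrophage state, which macrophages take on when they clear lipid. They were chosen by name, with their diet difference in these data already known, so their values are a description and carry no test. The platform annotation named 1 probe set for each of 5 of the 6 genes, among 24704 named genes in all. Spp1 had no named probe set and was not analysed here. Liver cells came from female C57BL/6N mice, which started the diets at an age of 10 weeks. The diets were CDAA, in which 31% of calories came from fat and 1% was cholesterol, and a control diet labelled Std. Feeding lasted 10 weeks by title and growth protocol, although 1 label field states days. Each of the 10 arrays, 5 per diet, held RNA from a pool of 3 mice, purified with beads against CD146 as liver sinusoidal endothelial cells, the lining cells of the liver's small vessels. The series' design text mentions a Gata4 knockout, but no sample label does.

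TREM2 is a surface receptor that binds lipids, lipoproteins and cell debris, and it has no signalling tail of its own. It pairs with the adaptor TYROBP, also called DAP12, whose cytoplasmic ITAM recruits the kinase SYK once phosphorylated. In fatty liver, macrophages that express TREM2, GPNMB and CD9 gather around lipid-laden and dying hepatocytes and in fibrotic tissue. Spp1 and Lgals3 are also expressed by bile duct cells, and Tyrobp by many myeloid and natural killer cells, so these genes do not each mark a single cell type.

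RefSeq promoter sequences (GRCm38.p6) were given for 4 of the 5 measured genes, and Tyrobp was without one. The windows of 300 bases were searched on both strands for 4 motifs. They were CACGTG, the E-box bound by MiT/TFE factors, TGANTCA, a loose AP-1 pattern with any base in its middle, and GAGGAAG, bound by PU.1. The last was the LXR element (AGGTCA, a gap of 4 bases, and AGGTCA again). Trem2 and Gpnmb each held 1 AP-1 match and Cd68 held 2, while Trem2 also held 1 PU.1 match. These motifs occur in 7.81% and 13.6% of the 32851 promoter windows of the table. The AP-1 matches differed in their middle base, which was A in Trem2, C in Gpnmb and G in Cd68. No other match was found in these 3 windows and none in that of Lgals3. CACGTG occurs in 7.15% and the LXR element in 0.0152% of all windows. No match overlapped another, and a match is a run of letters, not a shown binding site. The stretches that hold the matches are printed 5′ to 3′ from 160 bases before the start site through the first 20 transcribed bases, with matches in capitals to show where they lie. They are chr17:48346241-48346420 on the plus strand for Trem2, chr6:49036358-49036537 on the plus strand for Gpnmb and chr11:69666151-69666330 on the minus strand for Cd68.
Trem2: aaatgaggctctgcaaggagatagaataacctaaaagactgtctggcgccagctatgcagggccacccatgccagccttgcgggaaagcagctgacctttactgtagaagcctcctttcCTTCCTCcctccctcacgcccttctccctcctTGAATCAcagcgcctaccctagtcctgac
Gpnmb: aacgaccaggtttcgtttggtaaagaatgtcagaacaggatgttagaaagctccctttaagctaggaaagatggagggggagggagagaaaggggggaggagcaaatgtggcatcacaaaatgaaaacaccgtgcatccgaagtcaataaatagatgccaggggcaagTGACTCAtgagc
Cd68: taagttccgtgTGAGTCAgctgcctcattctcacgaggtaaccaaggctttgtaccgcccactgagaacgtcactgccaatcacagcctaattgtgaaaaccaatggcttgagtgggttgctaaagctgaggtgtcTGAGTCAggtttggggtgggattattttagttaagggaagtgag

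Signals are log2 values made by the authors with RMA, a procedure that gives all arrays one distribution. The array median was 3.89. No detection call is used here, so a signal below that median was not known to lie above background. Across genes, which are not independent replicates, pairs of CDAA arrays correlated at 0.972 to 0.991 and pairs of Std arrays at 0.980 to 0.992. A CDAA and a Std array correlated at 0.947 to 0.982. CDAA 1 and CDAA 3 lay apart from the other CDAA pools in the endothelial markers, with pan-endothelial means of 10.55 and 10.16 against 10.92 to 11.24. Std 3 lay apart in the neutrophil markers, with a list mean of 8.60 against 3.88 to 4.14 on the other Std arrays. Where leaving these arrays out ended a call or moved a called difference by over 1.5 times, the value without them is also given.

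The receptor and its adaptor differed by unlike amounts. Trem2 (probe set 83433_at) had log2 signals of 9.45, 8.59, 9.44, 8.01 and 8.33 in CDAA 1 to CDAA 5, against 4.71, 5.43, 5.50, 4.77 and 4.91 in Std 1 to Std 5. All CDAA pools were above all Std pools, with a gap of 2.51 between the lowest CDAA and the highest Std array. The means were 8.77 ± 0.65 in CDAA and 5.06 ± 0.37 in Std (SD, n = 5 each), a difference of 3.70 or 13-fold in signal. Tyrobp (22177_at) had 9.33, 8.72, 9.90, 8.05 and 9.0 in CDAA 1 to CDAA 5, against 7.30, 7.99, 8.55, 7.19 and 7.77 in Std 1 to Std 5. The diets overlapped through a single pair of arrays, since CDAA 4 lay below Std 3. Tyrobp averaged 9.0 ± 0.69 in CDAA and 7.76 ± 0.55 in Std (SD, n = 5 each), a difference of 1.24 or 2.36-fold, and of 1.44 without Std 3. Neutrophils also express Tyrobp, and the part of the neutrophil signal of Std 3 in its value was not tested. In a pool of cells, more cells of a type and more RNA per cell cannot be told apart.

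Gpnmb, a transmembrane glycoprotein of lysosomes and the surface of lipid-laden macrophages, had the widest separation of the 5 genes. Its signals (93695_at) were 11.36, 10.52, 11.47, 9.76 and 10.66 in CDAA 1 to CDAA 5, against 3.89, 3.00, 3.48, 3.38 and 3.49 in Std 1 to Std 5. Of the Std arrays, 4 lay below their array median and Std 1 lay at it, so Gpnmb was near the floor of the scale in Std and well up the scale in every CDAA pool. The means were 10.76 ± 0.69 in CDAA and 3.45 ± 0.32 in Std (SD, n = 5 each), a difference of 7.31 or 158-fold, which can understate the change in transcript.

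Lgals3 encodes galectin-3, a sugar-binding protein that acts on damaged lysosomes and is also secreted. It had signals (16854_at) of 11.90, 11.03, 12.08, 10.59 and 11.12 in CDAA 1 to CDAA 5, against 8.37, 8.81, 9.84, 7.83 and 8.77 in Std 1 to Std 5. The diets did not overlap, and Std 3 was the nearest Std array to the CDAA pools. Lgals3 averaged 11.34 ± 0.63 in CDAA and 8.72 ± 0.74 in Std (SD, n = 5 each), a difference of 2.62 or 6.15-fold, and of 2.90 without Std 3.

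Cd68, a lysosomal glycoprotein of macrophages of any origin, showed a small gap. Its signals (12514_at) were 10.95, 9.99, 11.06, 9.65 and 10.09 in CDAA 1 to CDAA 5, against 8.82, 9.13, 9.35, 8.44 and 9.08 in Std 1 to Std 5. The lowest CDAA array lay 0.30 above the highest Std array. Means were 10.35 ± 0.62 in CDAA and 8.96 ± 0.35 in Std (SD, n = 5 each), a difference of 1.38 or 2.61-fold. Cd68 already had a clear signal in Std, as had Tyrobp and Lgals3.

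In 4 of the 5 measured genes every CDAA array lay above every Std array, a pattern that 6.16% of the 24704 genes showed. All 5 differed by 1 or more on the log2 scale, as did 2.81% of all genes. In limma's test over all genes, 16.6% passed in either direction. Since the genes were chosen on this contrast, nothing is read from these counts.

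**Figure D1:**
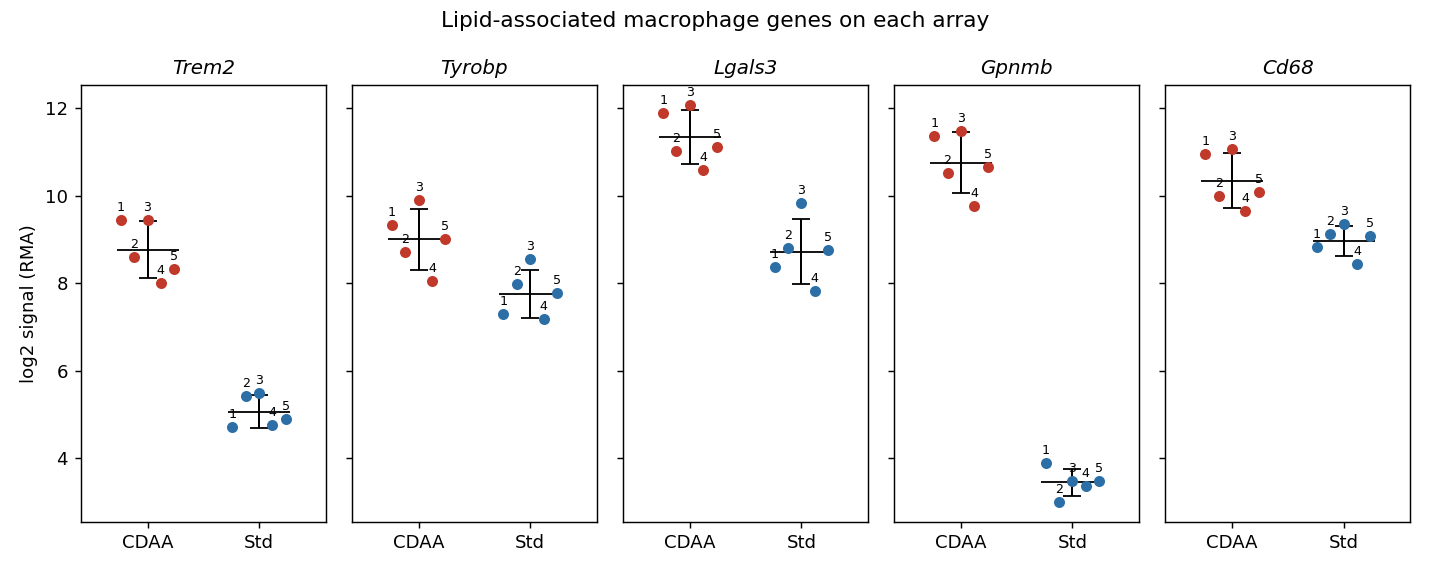
The vertical axis gives the log2 signal of each array for 5 lipid-associated macrophage genes, with CDAA pools left of Std pools, points numbered by replicate, and the horizontal line and bars showing the mean and SD (n = 5). Gpnmb lies between 9.76 and 11.47 in CDAA and between 3.00 and 3.89 in Std, while the 2 diets overlap for Tyrobp.

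The pools kept nearly the same order in all 5 genes. CDAA 1 and CDAA 3 were the 2 highest CDAA arrays in 5 of 5 genes, and CDAA 4 was the lowest in 5 of 5. This order was not particular to them. Of the marker lists described below, CDAA 1 and CDAA 3 also led the cholangiocyte (8.17 and 7.92) and stellate means (8.10 and 8.32). CDAA 4 was lowest there, at 7.31 and 6.77, and highest in the sinusoidal and pan-endothelial means, at 11.83 and 11.24. The Kupffer cell list differed, with CDAA 1 lowest at 6.88. The cause of this order was not tested. Among the Std arrays, Std 3 was the highest in 4 of 5 genes, the exception being Gpnmb. The range within CDAA was 1.44 for Trem2, 1.86 for Tyrobp, 1.49 for Lgals3, 1.71 for Gpnmb and 1.41 for Cd68. Without CDAA 1 and CDAA 3, the differences between the diets were 3.25 for Trem2, 0.83 for Tyrobp, 2.19 for Lgals3, 6.87 for Gpnmb and 0.94 for Cd68.

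Markers of several cell types moved with the diet in the same pools. The 8 markers of the labelled cell type, sinusoidal endothelium, had mean signals above the array median in both diets, as had all measured general macrophage and hepatocyte markers. Of these 8, 6 fell in limma's test at a Benjamini-Hochberg adjusted p of 0.05, a call made for 9.13% of all genes (7.49% rose). Their mean ran from 10.88 to 11.83 over the CDAA arrays and from 12.09 to 12.19 over the Std arrays. Mrc1, a mannose receptor, fell by 1.00 ± 0.16 (SE, limma adjusted p = 0.00140) and Stab2, a hyaluronan scavenger receptor, by 0.89 ± 0.15 (limma adjusted p = 0.00197). Of 8 pan-endothelial markers, 6 fell as well, led by the VEGF receptor Flt1 and the angiopoietin receptor Tek, which fell by 1.34 and 0.90 (Tek by 0.57 without CDAA 1 and CDAA 3).

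Macrophage lists went in opposite directions. Of 8 measured general macrophage markers, 5 rose and 1 fell, and the list mean ran from 8.68 to 9.92 in CDAA and from 7.86 to 8.85 in Std. Cd14, a lipopolysaccharide co-receptor, rose by 1.93 ± 0.43 and Mpeg1, the pore-forming perforin-2, by 1.47 ± 0.26 (SE, limma adjusted p = 0.00903 and 0.00274), though Cd14 did not pass without CDAA 1 and CDAA 3 (1.46). Mertk, a receptor for the uptake of dead cells, fell by 0.97 ± 0.09 (limma adjusted p = 6.38e-05). Of 8 Kupffer cell markers, 7 fell and none rose by limma (none rose at an unadjusted p of 0.05 either). Their mean ran from 6.88 to 7.66 in CDAA and from 8.40 to 9.50 in Std. Timd4, a phosphatidylserine receptor, and Cd163, a scavenger receptor for haemoglobin, each fell by 3.73. Of 7 measured monocyte markers, 4 rose, among them the chemokine receptor Ccr2 by 2.90 ± 0.41 and Fn1, fibronectin, by 2.60 ± 0.25. Cd163 averaged 3.84 in CDAA and Ccr2 3.50 in Std, below the array median, so these 2 differences can understate the change in transcript. The monocyte mean ran from 5.90 to 7.29 in CDAA and from 4.63 to 6.69 in Std, where Std 3 held the highest value.

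Epithelial and mesenchymal markers moved as well. All 7 measured cholangiocyte markers rose, with list means of 7.31 to 8.17 in CDAA and 4.51 to 5.49 in Std. Krt18 and Krt8, keratins of simple epithelia, rose by 3.64 ± 0.27 and 3.48 ± 0.21. Of 9 stellate cell and fibroblast markers 5 rose, and their means ran from 6.77 to 8.32 in CDAA and from 5.97 to 6.30 in Std. The collagen genes Col1a1 and Col3a1 rose by 3.43 ± 0.40 and 2.59 ± 0.35. Hepatocyte markers split, with 2 of 7 risen (Ttr by 1.54 and Alb by 1.28) and 2 fallen, and list means of 7.25 to 8.28 in CDAA and 7.17 to 7.71 in Std.

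Of 7 dendritic cell markers 1 fell, Zbtb46 by 0.86, and none rose by limma, while 3 were higher and 1 lower at an unadjusted p of 0.05 and the median difference was 0.39. Their list means were 4.41 to 5.13 in CDAA and 4.24 to 4.50 in Std. None of the 9 neutrophil markers and none of the 7 measured lymphocyte markers passed in limma's test. S100a9, a neutrophil calcium-binding protein, differed by 1.49 ± 0.89 (SE, limma adjusted p = 0.313), and by 2.56 without Std 3 (limma adjusted p = 6.21e-05). The T cell receptor gene Trac differed by 0.70 ± 0.48 (limma adjusted p = 0.395). Neutrophil means ran from 4.95 to 5.81 in CDAA and from 3.88 to 8.60 in Std, and lymphocyte means from 4.58 to 5.03 in CDAA and from 4.31 to 5.02 in Std. Ly6g, Mpo, Elane and Camp were below the array median on all CDAA arrays. Of the dendritic list Flt3, Xcr1 and Itgae, and of the lymphocyte list Cd3d, were below it on all Std arrays. Such signals were not known to lie above background. The part of these cell types in the signals of the lipid-associated macrophage genes was not tested.

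**Figure D2:**
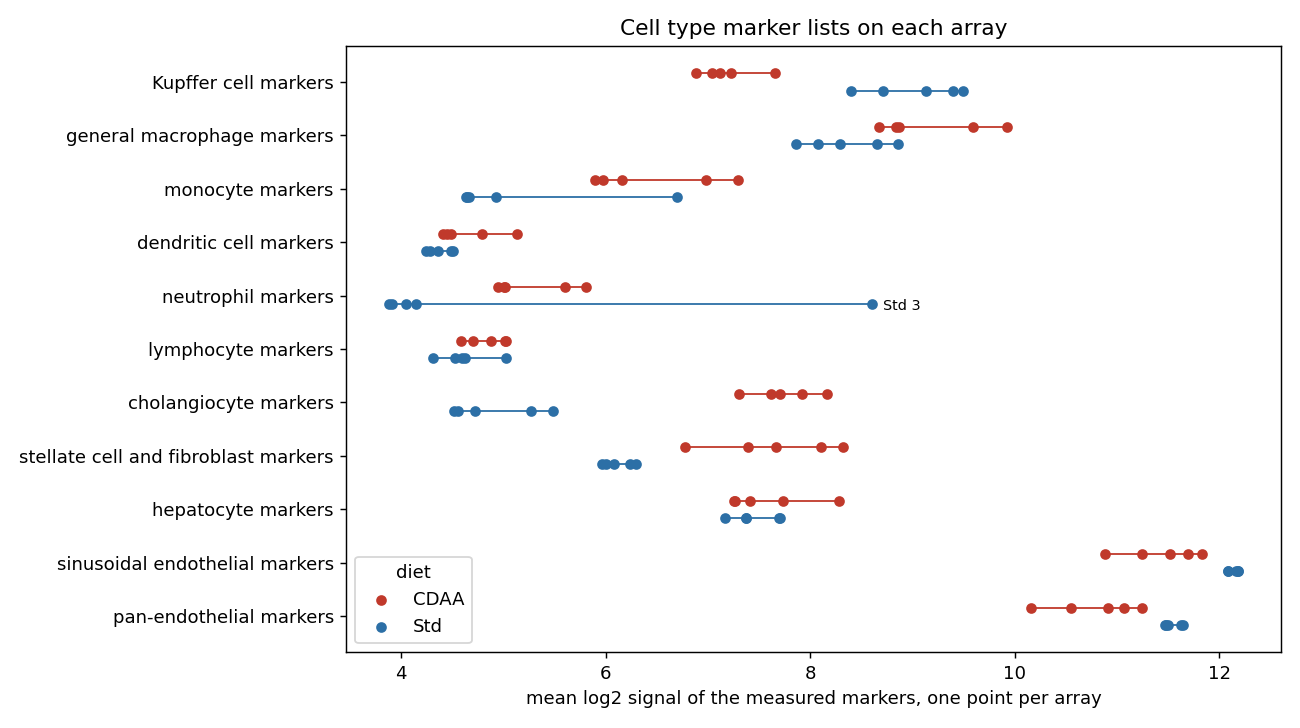
Each point is the mean log2 signal of the measured markers of a cell type on 1 array, with CDAA drawn above Std for each list and a line spanning the 5 arrays. Cholangiocyte means lie between 7.31 and 8.17 in CDAA and between 4.51 and 5.49 in Std, and Std 3 stands alone at 8.60 in the neutrophil list.

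The 5 genes were next set against the general macrophage markers of the same array, by subtracting the list mean of that array. On this scale Gpnmb stood at 1.77, 1.68, 1.55, 1.09 and 1.80 in CDAA 1 to CDAA 5, against -4.19, -5.65, -5.38, -4.49 and -4.81 in Std 1 to Std 5. Trem2 stood at -0.14, -0.25, -0.49, -0.67 and -0.53 in CDAA 1 to CDAA 5, against -3.37, -3.23, -3.36, -3.09 and -3.38 in Std 1 to Std 5. For both genes the diets stayed apart, and the spread of the CDAA pools was smaller than before the subtraction, with SDs of 0.29 for Gpnmb and 0.22 for Trem2 (n = 5 each). Among the Std pools the SD of Gpnmb was larger after the subtraction, at 0.61, and that of Trem2 smaller, at 0.12.

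The difference between diets after subtraction was 6.48 for Gpnmb, 2.87 for Trem2, 1.79 for Lgals3, 0.55 for Cd68 and 0.41 for Tyrobp. Cd68 averaged 1.17 ± 0.14 in CDAA and 0.61 ± 0.14 in Std (SD, n = 5 each), without overlap. Tyrobp averaged -0.18 ± 0.29 in CDAA and -0.59 ± 0.18 in Std (SD, n = 5 each), and its arrays overlapped. Lgals3 averaged 2.16 ± 0.15 in CDAA and 0.37 ± 0.39 in Std (SD, n = 5 each), without overlap. With Mertk left out of the marker list, the differences were 0.30 for Cd68 and 0.15 for Tyrobp. Gpnmb, Trem2 and Lgals3 thus differed by more than 1 beyond the macrophage mean, and Cd68 and Tyrobp by less than 1. With the pan-endothelial mean added to the fit as a covariate, the differences were 6.28 for Gpnmb, 2.61 for Trem2, 1.42 for Lgals3 and 0.27 for Cd68, and that of Tyrobp turned to -0.024.

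**Figure D3:**
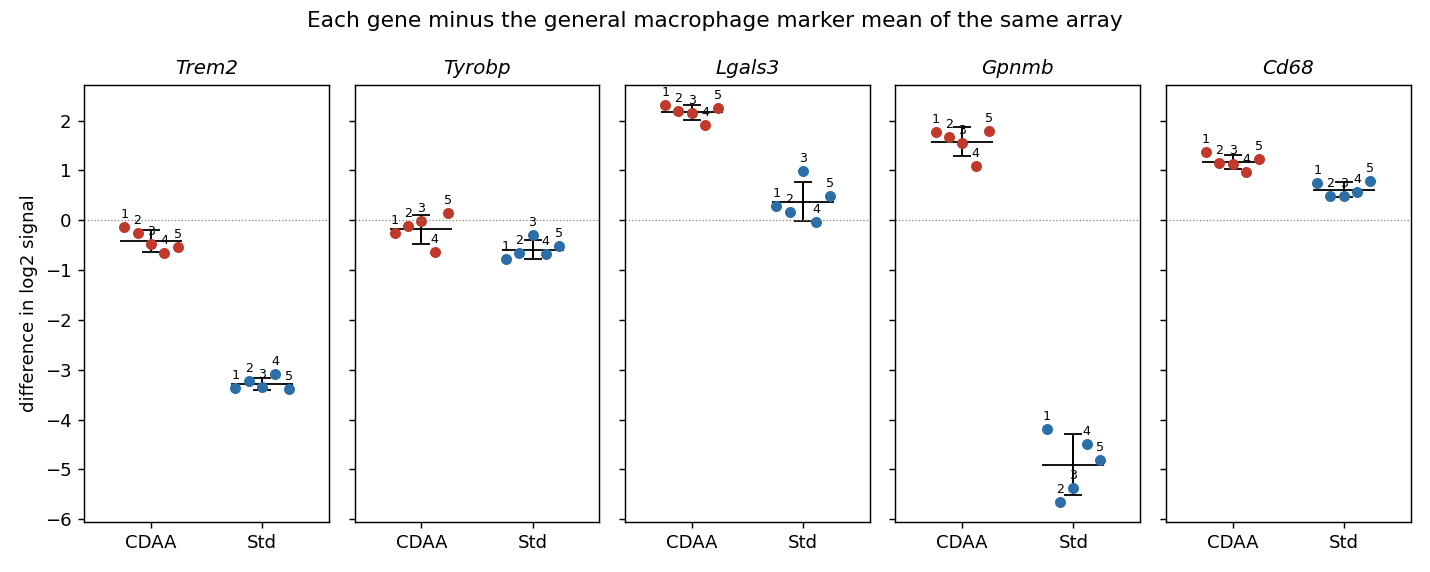
The vertical axis gives the log2 signal of each gene minus the mean of the general macrophage markers on the same array, with CDAA left of Std, points numbered by replicate, and lines showing mean and SD (n = 5). The Gpnmb difference is 6.48 and that of Tyrobp 0.41, where the diets overlap.

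Genes around TREM2 and TYROBP were compared in the same way with limma over all genes. Of 28 measured genes of this signalling list 3 rose and none fell, against 7.49% risen and 9.13% fallen over all genes. At an unadjusted p of 0.05 the counts were 10 and 3, a description only, since the share of all genes at that level was not counted. The median difference of the list was 0.28, against -0.021 over all genes. Both risen ligands are lipid carriers that bind TREM2. Clu, clusterin, had 12.85, 12.74, 12.93, 12.51 and 12.62 in CDAA 1 to CDAA 5, against 11.25, 10.24, 11.39, 10.49 and 9.88 in Std 1 to Std 5. It rose by 2.08 ± 0.25 (SE, limma adjusted p = 0.000279), without overlap. Apoe, apolipoprotein E, rose by 0.49 ± 0.13 (SE, limma adjusted p = 0.0256), but did not pass without CDAA 1 (0.44), Std 1 (0.46) or Std 4 (0.44), nor without CDAA 1 and CDAA 3 (0.30).

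The other risen gene was Lat2, a membrane adaptor of immune receptor signalling, by 1.49 ± 0.33 (SE, limma adjusted p = 0.00962), and by 0.89 without CDAA 1 and CDAA 3. Its signals were 6.97, 5.56, 7.41, 5.39 and 6.13 in CDAA 1 to CDAA 5, and 4.78, 4.57, 4.77, 4.81 and 5.08 in Std 1 to Std 5. None of 5 other TREM family receptors passed in limma's test, also at an unadjusted p of 0.05, with differences of -0.12 to 0.54. Trem1 and Treml2 did rise without Std 3 and also without CDAA 1, CDAA 3 and Std 3. Treml2, however, averaged 3.44 in CDAA and 3.50 in Std, below the array median, so its signal was not known to lie above background. The adaptors Fcer1g and Hcst, which serve receptors like those of TYROBP, differed by 0.37 ± 0.19 and -0.14 ± 0.14 (SE, limma adjusted p = 0.225 and 0.609).

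Syk, the kinase recruited by TYROBP, had 7.38, 6.43, 7.50, 6.04 and 6.25 in CDAA 1 to CDAA 5, against 5.56, 5.92, 6.65, 5.22 and 5.63 in Std 1 to Std 5. The diets overlapped, again through Std 3, and the difference of 0.93 ± 0.32 did not pass (SE, limma adjusted p = 0.0703). The exchange factor Vav1 (0.95), the phosphatase Ptpn6 (1.04) and the TYROBP-paired receptors Cd300lb (1.05) and Clec5a (1.25) did not pass either, at limma adjusted p of 0.0587, 0.0516, 0.0518 and 0.168. Without Std 3, 10 genes of the list rose, among them Syk (1.14), Vav1 (1.11), Ptpn6 (1.28), Cd300lb (1.39) and Clec5a (1.82), and Vav3 fell. Without CDAA 4, 7 rose. Without CDAA 1 and CDAA 3, 2 rose, and Syk, Vav1 and Ptpn6 differed by 0.45, 0.46 and 0.55. Without these arrays and Std 3, 8 rose. With the general macrophage mean as a covariate 1 rose, and with the pan-endothelial mean none did in limma's test. Over all 24704 genes, 1402 to 1989 rose with 1 array left out, and 484 and 162 with these covariates. The list counts are thus a description.

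Of 25 other measured genes of the lipid-associated macrophage state 16 rose and 1 fell, against 7.49% risen and 9.13% fallen over all genes. The median difference was 0.56. All 3 lists of related genes were chosen with earlier results of these data known, so their counts are a description. Among lysosomal genes 6 of 9 rose. Atp6v0d2, a subunit of the vacuolar proton pump, had 9.12, 7.91, 9.21, 6.98 and 8.09 in CDAA 1 to CDAA 5, against 2.70, 2.68, 2.80, 2.36 and 2.24 in Std 1 to Std 5, all of which lay below the array median. It rose by 5.70 ± 0.36 (SE, limma adjusted p = 5.92e-06). Among proteases, cathepsin S (Ctss) rose by 1.66 ± 0.27 (SE, limma adjusted p = 0.00177). Cathepsin D (Ctsd) rose by 0.56 ± 0.15 (SE, limma adjusted p = 0.0244), although Ctsd did not pass without CDAA 1 (0.46), CDAA 3 (0.47), Std 1 (0.52), Std 4 or Std 5 (0.54 each), nor without both CDAA 1 and CDAA 3 (0.31).

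Of 9 lipid uptake and storage genes 6 rose. Lpl, the lipase that frees fatty acids from lipoproteins, had 11.43, 10.55, 11.59, 9.89 and 10.39 in CDAA 1 to CDAA 5, against 7.79, 8.49, 7.73, 7.56 and 8.33 in Std 1 to Std 5. It rose by 2.79 ± 0.31 (SE, limma adjusted p = 0.000150). Plin2, a coat protein of lipid droplets, rose by 0.64 ± 0.14, and by 0.43 without CDAA 1 and CDAA 3, but did not pass without Std 3 as well. Lipa, the acid lipase of lysosomes, rose by 0.52 ± 0.14 (limma adjusted p = 0.0258), but not without CDAA 1, CDAA 3, Std 1, Std 4 or Std 5 (0.43 to 0.51), nor without both CDAA 1 and CDAA 3 (0.29).

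Of 7 surface or secreted genes 4 rose and 1 fell. Clec7a, the glucan receptor dectin-1, had 10.90, 10.07, 10.96, 9.56 and 10.08 in CDAA 1 to CDAA 5, against 6.86, 7.73, 7.70, 6.94 and 7.08 in Std 1 to Std 5, a rise of 3.05 ± 0.28 (SE, limma adjusted p = 4.81e-05). The tetraspanins Cd63 and Cd9 rose by 2.46 ± 0.22 and 1.01 ± 0.10 and the actin-capping gene Capg by 1.69 ± 0.24. Csf1, the growth factor that sustains macrophages, had 8.51, 9.01, 8.36, 9.16 and 8.80 in CDAA 1 to CDAA 5, against 9.65, 9.61, 10.01, 9.90 and 9.61 in Std 1 to Std 5. It fell by 0.99 ± 0.16 (SE, limma adjusted p = 0.00139), and CDAA 1 and CDAA 3, highest in the macrophage genes, were lowest in Csf1. Without Std 4, 10 genes of this list rose, and without CDAA 1 and CDAA 3, 12. With the general macrophage or pan-endothelial mean as a covariate, 8 and 5 rose.

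Relatives and partners of the encoded proteins did not move one way. Of 31 genes 6 rose and 4 fell, against 7.49% risen and 9.13% fallen over all genes. The median difference was -0.03, but some genes of the list lay below the array median in both diets. Without CDAA 1 and CDAA 3 the counts were 5 and 3. With the general macrophage or pan-endothelial mean as a covariate 3 and 2 rose, and none fell in limma's test. Among 9 receptors of osteopontin, the product of Spp1, 3 rose and 2 fell. Itgb5 and Itgav, subunits that pair as an integrin, rose by 1.88 ± 0.29 (SE, limma adjusted p = 0.00121) and 1.49 ± 0.15 (limma adjusted p = 9.52e-05). Itgav ran from 8.69 to 9.46 over the CDAA arrays and from 7.47 to 7.71 over the Std arrays. The hyaluronan receptor Cd44 rose by 1.34 ± 0.33 (SE, limma adjusted p = 0.0166), but not without CDAA 1 and CDAA 3 (0.88). The integrin subunits Itga9 and Itga8 fell by 0.64 ± 0.12 and 0.63 ± 0.17 (SE, limma adjusted p = 0.00453 and 0.0231), Itga8 not without CDAA 1 (-0.57), Std 2 (-0.59) or Std 4 (-0.58), nor without both CDAA 1 and CDAA 3 (-0.39). Sdc4, a heparan sulphate proteoglycan that binds GPNMB, rose by 1.53 ± 0.15 (limma adjusted p = 8.61e-05).

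Of the 4 MiT/TFE factors, which drive lysosomal genes and Gpnmb, Mitf rose and Tfec fell. Tfeb and Tfe3 did not pass, with differences of 0.036 and -0.23 (limma adjusted p = 0.871 and 0.113). Mitf had 6.59, 6.20, 6.87, 5.41 and 6.04 in CDAA 1 to CDAA 5, against 5.21, 5.40, 5.38, 5.29 and 5.01 in Std 1 to Std 5, a rise of 0.97 ± 0.22 (SE, limma adjusted p = 0.0107). CDAA 4 exceeded the highest Std array only slightly, and the rise was 0.63 without CDAA 1 and CDAA 3. Tfec had 6.63, 7.81, 6.79, 7.61 and 7.72 in CDAA 1 to CDAA 5, against 8.12, 8.28, 8.11, 8.18 and 8.15 in Std 1 to Std 5, a fall of 0.86 ± 0.22 (SE, limma adjusted p = 0.0177), and a difference of -0.45 without CDAA 1 and CDAA 3. In the galectin group 1 of 8 rose, Lgals1 by 0.60 ± 0.12, and 1 fell, the galectin-3 ligand Lgals3bp by 0.46 ± 0.12 (limma adjusted p = 0.0189), which did not pass without Std 1 (-0.41) or without CDAA 1, CDAA 3 and Std 3. None of 4 relatives of CD68 in the LAMP family passed in limma's test (1 was lower at an unadjusted p of 0.05), with differences of -0.41 to -0.13. None of 4 relatives of SPP1 did either (1 was higher at an unadjusted p of 0.05). The SPP1 relatives had mean signals of 2.54 to 3.06 in CDAA and 2.63 to 3.18 in Std, below the array median. They were not known to lie above background, so a missing call does not show unchanged expression. The same holds for other dim genes of this list, galectins among them.

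**Figure D4:**
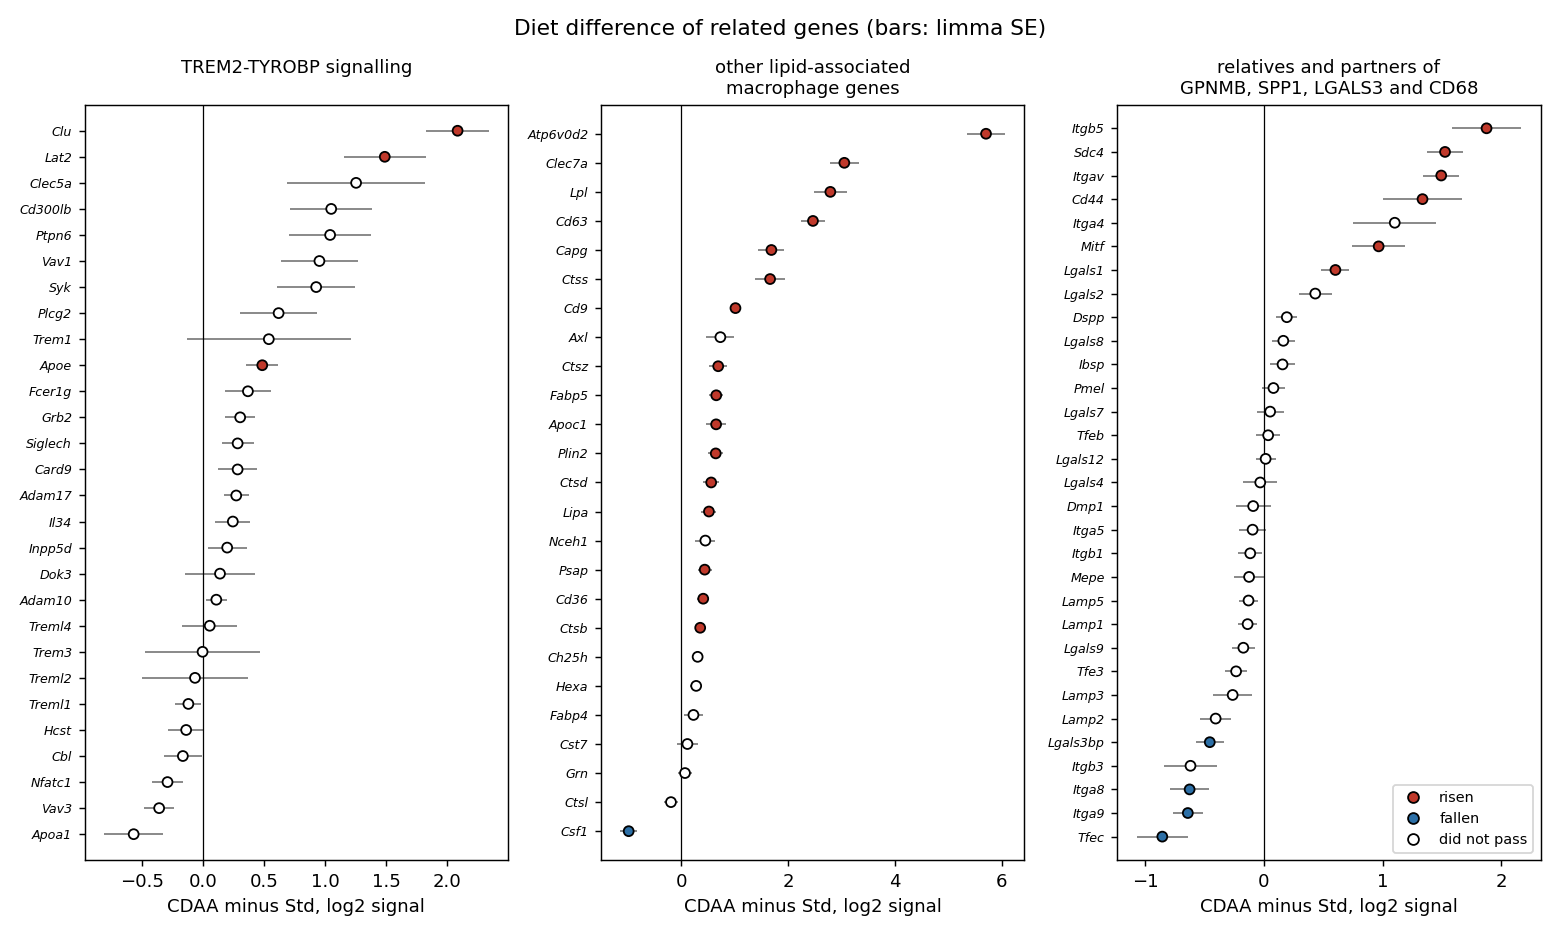
The horizontal axis gives the CDAA minus Std difference in log2 signal with limma's SE for each measured gene of 3 lists, filled where it passed the adjusted p of 0.05. In the signalling list 3 of 28 genes rose, in the list of other lipid-associated macrophage genes 16 of 25 rose and Csf1 fell, and among relatives and partners 6 of 31 rose and 4 fell. Over all genes 7.49% rose and 9.13% fell.

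For each of the 5 genes, the 2 genes with the most similar profile over the 10 arrays were found among 19978 others by the root mean square distance of their log2 signals, each taken relative to its own Std mean. Mmp12, the macrophage elastase, was nearest to Gpnmb at 0.42, and Atp6v0d2 was next at 1.17. Mmp12 averaged 11.12 ± 0.64 in CDAA and 4.33 ± 0.33 in Std (SD, n = 5 each). Nearest to Trem2 were Bcl2a1b, a survival gene of the BCL2 family, at 0.37 and Itgax, which encodes CD11c, at 0.39. Bcl2a1b has close copies whose signals a probe set may not separate. Itgax averaged 8.09 ± 0.89 in CDAA and 4.06 ± 0.45 in Std (SD, n = 5 each). Nearest to Cd68 were Mpeg1 at 0.11 and Lpxn, a focal adhesion gene of leukocytes, at 0.15, whose rise of 1.35 was 0.88 without CDAA 1 and CDAA 3. Nearest to Tyrobp were the chemokine Ccl6 at 0.13 and Ms4a6c, a membrane-spanning gene of myeloid cells, at 0.17. Ccl6 rose by 1.34 and Ms4a6c by 1.32, but neither passed without Std 1 or Std 4 nor without CDAA 1 and CDAA 3, and Ms4a6c not without CDAA 1 (0.80 to 1.22 over both genes). Nearest to Lgals3 were Il1rn, the interleukin-1 receptor antagonist, at 0.32 and Gpt2, a mitochondrial alanine aminotransferase, at 0.33. These distances describe the 10 arrays and rest mainly on the size of the diet difference.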

How the data were processed

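The deposited values are log2 signals that the authors made with RMA, per the submitters' processing notes, with the version, array design and genome build not given in the sources used here. This method corrects background, gives arrays one distribution and summarises probes, so a shift shared by most genes would not be seen. Scanner files were not used here. Of 25428 probe sets, 24705 had 1 gene symbol and 723 none. 1 gene had several probe sets, and the one with the highest mean was kept. CDAA was set against Std with limma 3.58.1 in R 4.3.3 (lmFit and eBayes). Tests were two-sided and p-values adjusted by Benjamini and Hochberg's method over 24704 genes, and "rose" and "fell" mean an adjusted p of at most 0.05. The fit was tried on simulated data with unrelated noise in each gene and equal spread in both diets. Those data lack the order shared by these arrays, so they do not bear on single calls here. The labels call the pools biological replicates, and p-values measure the spread between pools. For arrays, their number limits the precision, and no batch is given.

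The members, marker lists and related genes were chosen with earlier results of these data known. Named genes were the members, up to 4 list genes per direction and up to 2 per marker list with the largest change that passed (otherwise the smallest p), and the 2 nearest profiles per member, which gave 43 genes. Another 17 were named after their values were seen: Syk, Vav1, Vav3, Ptpn6, Cd300lb, Clec5a, Fcer1g, Hcst, Mitf, Ctss, Ctsd, Cd9, Capg, Lipa, Plin2, Lgals1 and Mertk. Trem1 and Treml2 were added likewise, for their calls without Std 3, and Tfeb and Tfe3 to complete their group. Counts are over the list genes measured here. Other settings were a replicate block, renormalization, filters on dim genes, variance models, covariates and leaving arrays out. The covariate of neutrophil markers, the fit without CDAA 1, CDAA 3 and Std 3, and the marker mean without Mertk were added after seeing the data. Same-numbered pools of the 2 diets had deviations from their group means that correlated at 0.02 to 0.25, not all over 0.1, and were not treated as pairs.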

Additional observations from a re-analysis of the deposited data

Results flagged for a closer look

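Outliers were sought in 130 groups of 5 arrays, which were the 5 measured members and 60 other named genes, in each diet. Of these groups, 4 held an array set apart, with a gap to its nearest neighbour above 0.71 of the whole range (Dixon's limit at this size). Trem1, Treml2, Ly6g, Mpo, Elane, Camp, Flt3, Xcr1, Itgae, Cd3d, Tfeb and Tfe3 were not searched. Chance flags about 1 group in 20 where groups are independent. These genes share the same arrays and some were named after their values were seen, so 4 of 130 is not judged against that rate. S100a9 stood at 9.99 in Std 3, against 4.44 to 4.98 on the other Std arrays. Clec5a stood at 5.85 in Std 3, against 2.55 to 3.23 on the other Std arrays. Cd300lb stood at 5.97 in Std 3, against 4.07 to 4.58 on the other Std arrays. Mertk stood at 9.87 in CDAA 4, against 9.55 to 9.64 on the other CDAA arrays. None of the 5 lipid-associated macrophage genes had such an array.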

How the results depend on the processing

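Of 26 other settings, 10 left out 1 array each. Over these, the differences ran from 3.53 to 3.89 for Trem2, 1.01 to 1.48 for Tyrobp, 2.40 to 2.90 for Lgals3, 7.13 to 7.56 for Gpnmb and 1.20 to 1.56 for Cd68. Relative to the general macrophage mean they ran from 2.80 to 2.94, 0.33 to 0.52, 1.69 to 1.94, 6.29 to 6.66 and 0.50 to 0.60 in the same order. Over all genes 1402 to 1989 rose and 1554 to 2583 fell. In the TREM2-TYROBP list 2 to 10 rose and 0 to 1 fell, among other lipid-associated macrophage genes 10 to 17 rose and 1 fell each time, and among relatives and partners 6 to 8 rose and 3 to 6 fell.

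Marker means as covariates changed most counts. With the general macrophage mean, the differences were 2.83 for Trem2, 0.23 for Tyrobp, 1.52 for Lgals3 and 0.54 for Cd68. Then 484 genes rose and 285 fell, and in the 3 lists, taken in the same order, 1, 8 and 3 rose and 0 fell in each. With the pan-endothelial mean, the differences were 2.61 for Trem2, 1.42 for Lgals3, 6.28 for Gpnmb, 0.27 for Cd68 and -0.024 for Tyrobp. Then 162 genes rose and 71 fell, and in the lists 0, 5 and 2 rose and 0 fell in each. Both means differ between the diets, so these fits share the diet difference with the covariate. Genes whose sign turned with the general macrophage mean were Clec5a (-0.20), Fcer1g (-0.18), Ptpn6 (-0.014), S100a9 (-0.073), Syk (-0.088), Trac (-0.33) and Vav1 (-0.063). With the pan-endothelial mean they were Clec5a (-0.21), Fcer1g (-0.39), Lipa (-0.0074), Ms4a6c (-0.14), Ptpn6 (-0.18), Syk (-0.25), Trac (-0.92) and Vav1 (-0.26), and no turned value passed.

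The count of risen TREM2-TYROBP genes was the least stable. It was 6 without the dimmest 25% of genes, 7 without genes below the median, with array weights or with the neutrophil mean as a covariate, and 8 without CDAA 1, CDAA 3 and Std 3. Over all genes the risen count stayed within 1.5 times of its main value in these settings, though the filters also lower the number of genes tested. Of the same list, 1 gene fell without genes below the median, without CDAA 1 and CDAA 3, and without CDAA 1, CDAA 3 and Std 3, and 2 fell with array weights. Without CDAA 1 and CDAA 3, 1307 of all genes fell, and without Std 3 as well 1288, when 2 relatives and partners fell. With Mertk left out of the macrophage markers, the differences from their mean were 2.61 for Trem2, 0.15 for Tyrobp and 0.30 for Cd68. The cause of these shifts was not tested. A replicate block, taking same-numbered pools as pairs, gave 8 risen TREM2-TYROBP genes and kept every other count within 1.5 times, and 3 of 5 numbers matched best with their own number, a hint from the data and not the design. Spp1 was not run. Without detection calls, low signals such as Gpnmb in Std have an unknown distance to background.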
